A study of Mus musculus with 16 samples.

Results

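The regions described here are the 17202 ATAC-seq peaks that were open in every distinct peak list of a study of mouse gonocytes, as male germ cells are called from late fetal life until shortly after birth. They were chosen by measured values, the authors' own peak calls: a peak of the E13.5 het list was a member when it overlapped, by 1 bp or more, a peak in each of the 5 other lists (E13.5 KO, E16.5 het, E16.5 KO, P0 and P3). Members made up 42.5% of the 40448 E13.5 het peaks (95% Wilson interval 42.0 to 43.0). ATAC-seq marks open chromatin with a transposase that inserts sequencing adapters where DNA is accessible.

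The study holds 16 ATAC-seq samples in 8 groups of 2, and 1 deposited peak list per group. The groups are male germ cells of *Morc1* (+/-) mice, called het, and of *Morc1* knockout mice, called KO, at 2 embryonic stages (E13.5 and E16.5) and 2 stages after birth (P0 and P3, postnatal days 0 and 3). All were testis germ cells from mice that also carried the Mvh-Venus transgene, a fluorescent reporter driven by the *Ddx4* (Mvh) germ cell gene, so that the controls were heterozygous for *Morc1* and not wild type. *Morc1* encodes a germ cell ATPase of the MORC family that takes part in silencing transposons. The P0 lists of the 2 genotypes were identical row for row, as were the P3 lists, so each pair was used once and carries no genotype. The lists hold coordinates only, with no height, score or read count. Depth is therefore unknown, no list belongs to 1 replicate, and no difference could be set against a spread between samples. The intervals given cover counting error over peaks, promoters or genes, which are not independent samples of a condition.

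Between E13.5 and P3 male germ cells stop dividing, rebuild the DNA methylation erased earlier, and move from a fetal program towards the spermatogonial one. In most mammalian cells a large class of promoters is open whatever the cell type: CpG-rich promoters of genes for translation, energy metabolism, transcription and chromatin. Such promoters often carry sites for widely expressed factors, among them the ETS family, NRF1, NF-Y, the SP and KLF families, YY1 and BANP, whereas many tissue-restricted promoters are CpG-poor and some have a TATA box. Distal elements, in contrast, tend to open and close as cells change state.

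Sequence at the members can be read at promoters, and 12 stretches are printed first because they show what the counts below describe. Each is the 150 bases before a gene's start, 5′ to 3′ in the direction of transcription, from RefSeq on GRCm38.p6. Capitals mark matches, on either strand, to any of 18 short motifs searched. The first 4 belong to genes of the piRNA pathway and of meiosis. *Ddx4* encodes the RNA helicase whose promoter also drives the reporter, *Mov10l1* a helicase needed to make piRNAs, *Tdrkh* a tudor protein of piRNA processing and *Hormad1* a protein of the meiotic chromosome axis.
Ddx4 (chr13:112652311-112652460, minus strand): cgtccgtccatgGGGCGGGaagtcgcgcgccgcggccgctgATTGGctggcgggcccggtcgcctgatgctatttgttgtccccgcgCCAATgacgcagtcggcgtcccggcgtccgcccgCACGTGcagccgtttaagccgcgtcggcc
Mov10l1 (chr15:88982844-88982993, plus strand): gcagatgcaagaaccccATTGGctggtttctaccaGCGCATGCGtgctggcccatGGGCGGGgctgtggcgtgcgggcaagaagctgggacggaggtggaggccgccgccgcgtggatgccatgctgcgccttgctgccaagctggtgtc
Tdrkh (chr3:94413094-94413243, plus strand): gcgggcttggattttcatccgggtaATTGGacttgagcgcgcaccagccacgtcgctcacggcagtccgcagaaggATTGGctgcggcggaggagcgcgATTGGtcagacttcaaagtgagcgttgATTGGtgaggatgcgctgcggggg
Hormad1 (chr3:95559527-95559676, plus strand): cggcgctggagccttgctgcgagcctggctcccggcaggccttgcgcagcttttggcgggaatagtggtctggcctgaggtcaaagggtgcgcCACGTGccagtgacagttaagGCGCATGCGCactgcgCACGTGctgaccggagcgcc

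In these 4 stretches the capitals are the CCAAT box bound by NF-Y (CCAAT, or ATTGG on the other strand), the SP/KLF site or GC box (GGGCGGG), the NRF1 site (GCGCATGCG) and the E-box (CACGTG). *Tdrkh* had 4 CCAAT boxes and no other match. *Hormad1* had an NRF1 palindrome read on both strands between 2 E-boxes. *Ddx4* had 2 CCAAT boxes, a GC box and an E-box, and *Mov10l1* a CCAAT box, an NRF1 site and a GC box.

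The next 5 are members at genes used in most cells, shown for comparison: *Setdb1*, an H3K9 methyltransferase that represses transposons, *Zfp281*, a zinc finger factor and the member whose position varied least, *Mfn1*, a mitochondrial fusion protein, *Rps6*, a ribosomal protein, and *H4c4*, a replication-dependent histone.
Setdb1 (chr3:95357203-95357352, minus strand): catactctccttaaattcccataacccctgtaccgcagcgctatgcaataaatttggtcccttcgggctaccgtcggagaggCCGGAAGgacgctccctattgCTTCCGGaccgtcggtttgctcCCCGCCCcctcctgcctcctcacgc
Zfp281 (chr1:136624751-136624900, plus strand): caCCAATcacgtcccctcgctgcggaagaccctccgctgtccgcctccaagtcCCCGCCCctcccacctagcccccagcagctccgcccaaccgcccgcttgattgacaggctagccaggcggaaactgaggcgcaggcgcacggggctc
Mfn1 (chr3:32529332-32529481, plus strand): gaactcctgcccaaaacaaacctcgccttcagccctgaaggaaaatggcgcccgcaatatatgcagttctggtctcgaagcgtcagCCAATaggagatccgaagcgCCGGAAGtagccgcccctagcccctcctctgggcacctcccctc
Rps6 (chr4:86857368-86857517, minus strand): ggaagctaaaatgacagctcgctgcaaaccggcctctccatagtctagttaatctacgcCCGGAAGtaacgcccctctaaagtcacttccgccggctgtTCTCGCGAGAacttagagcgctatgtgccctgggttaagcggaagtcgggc
H4c4 (chr13:23581418-23581567, plus strand): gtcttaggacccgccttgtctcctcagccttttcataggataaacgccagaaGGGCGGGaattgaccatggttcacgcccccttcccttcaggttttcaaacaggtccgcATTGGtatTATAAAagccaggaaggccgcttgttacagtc

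Here the ETS site (CCGGAAG) appeared in *Setdb1* on both strands, in *Mfn1* and in *Rps6*, and *Rps6* also had the BANP site (TCTCGCGAG), which is nearly its own reverse complement. *H4c4* had a TATA box (TATAAA) that began 32 bases before its start. For contrast stand 3 stretches without a member: *Stra8*, the gene that starts the meiotic program, with a peak in the P3 list alone, and *Krt13* (a keratin) and *Vmn1r1* (a vomeronasal receptor), with no peak in any list. The *Vmn1r1* entry is short (182157178 to 182158098), and whether its start is that of transcription was not tested.
Stra8 (chr6:34920798-34920947, plus strand): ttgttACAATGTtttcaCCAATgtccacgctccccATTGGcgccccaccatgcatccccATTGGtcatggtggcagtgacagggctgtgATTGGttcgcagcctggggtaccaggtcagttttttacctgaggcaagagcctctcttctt
Krt13 (chr11:100121567-100121716, minus strand): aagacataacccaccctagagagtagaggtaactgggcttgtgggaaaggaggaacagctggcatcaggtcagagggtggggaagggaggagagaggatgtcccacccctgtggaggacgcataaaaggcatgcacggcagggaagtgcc
Vmn1r1 (chr1:182158099-182158248, minus strand): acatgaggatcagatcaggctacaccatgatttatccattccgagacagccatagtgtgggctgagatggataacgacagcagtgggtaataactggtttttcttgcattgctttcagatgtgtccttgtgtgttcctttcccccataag

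The *Stra8* stretch had 4 CCAAT boxes and a DMRT1 match (ACATTGT, here on the other strand), as many CCAAT boxes as *Tdrkh*, whose promoter was open in all 6 lists. The last 2 had no match to any of the 18 motifs. In the 150 bases shown there were 26 CpG dinucleotides in *Ddx4* and 15 in *Tdrkh*, against 3 in *Stra8*, 2 in *Krt13* and 2 in *Vmn1r1*. A match is a description of letters and shows no binding.

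Overlap with all 5 other lists was the most frequent outcome for an E13.5 het peak, and overlap with 1 the next. Of the 40448 peaks, 4854 overlapped none of the other lists, 8548 overlapped 1, 3117 overlapped 2, 2944 overlapped 3, 3783 overlapped 4 and 17202, the members, overlapped all 5. Peaks open in both E13.5 lists and in no later list numbered 7447. Just outside the rule lay the 3783 peaks that missed 1 list. The missing list was E13.5 KO for 1189 of them, P3 for 935, E16.5 het for 738, P0 for 595 and E16.5 KO for 326. Each member was matched to the 1 peak it overlapped most in every other list, and no peak was matched to more than 1 member. The 17202 matched peaks were 43.5% of the E13.5 KO list, 32.0% of the E16.5 het list and 30.1% of the E16.5 KO list. They were 25.6% of the P0 list and 38.4% of the P3 list. These shares follow the lengths of the lists, from 39559 peaks (E13.5 KO) to 67258 (P0). Had the overlap been required to cover 50% of both peaks, 16052 regions would have been members, and 17913 had peaks up to 500 bp apart been accepted.

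Members lay mainly at the ends of genes. Of the 17202 members, 11019 (64.1%, interval 63.3 to 64.8) lay within 1000 bp of an outer end of an annotated gene, 3447 (20.04%) elsewhere within a gene and 2736 (15.9%) between genes. Among the other 23246 E13.5 het peaks the shares were 15.6%, 46.5% and 37.9%. The difference at gene ends was 48.5 percentage points (Newcombe interval 47.6 to 49.3). When every peak was moved by 100 kb in both directions, 12.04% of the member positions and 9.22% of the others met a gene end.

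The share at a gene end differed widely with the number of lists. It was 8.80% for peaks in no other list, 10.6% with 1 other list, 17.4% with 2, 21.4% with 3, 29.6% with 4 and 64.1% with all 5. The step from 4 to 5 other lists was 34.5 percentage points (interval 32.8 to 36.1). Against peaks open in both E13.5 lists and no later one, of which 9.79% lay at a gene end, members differed by 54.3 points (interval 53.3 to 55.2). Among the peaks that missed 1 list, 17.7% lay at a gene end where E13.5 KO was missing and 38.8% where P3 was missing. Read the other way, 75.3% of all E13.5 het peaks at a gene end were members, against 24.2% within genes and 23.7% between genes.

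**Figure D1:**
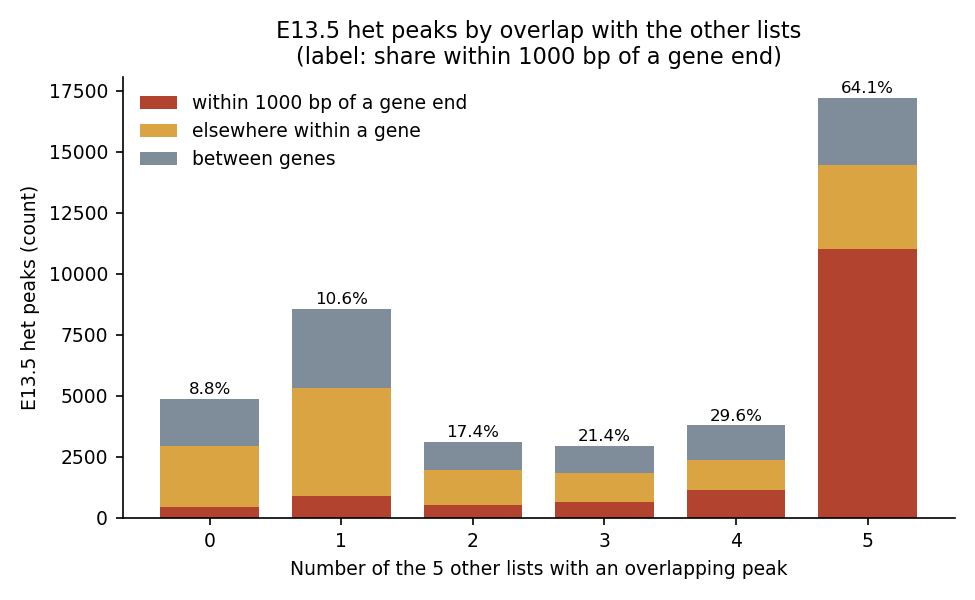
Bars count E13.5 het peaks (vertical axis) by how many of the 5 other lists hold an overlapping peak (horizontal axis), coloured by position relative to genes, with the share within 1000 bp of a gene end printed above. The members, the bar at 5, number 17202 and 64.1% of them lie at a gene end, against 29.6% of the 3783 peaks that missed 1 list.

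Outer gene ends include transcript ends, so gene starts were also taken from the RefSeq promoter table, which gives a strand. It has no start on chromosome 18 and lacks those of some genes elsewhere. With chromosome 18 counted, 17492 of 21887 protein-coding genes have a start in it. A peak at a missing start counts below as holding none, so shares with a start may be too low and distances too long. A start lay inside 8214 of 16730 members on those chromosomes (49.1%, interval 48.3 to 49.9) and inside 1303 of 22387 other E13.5 het peaks (5.82%). Of all 9517 E13.5 het peaks that held a start, 86.3% were members, and of the 29600 that held none, 28.8%. The median distance from peak centre to the nearest start was 288 bp for members and 25926 bp for the others. At the far end, 1531 members (9.15%) lay over 100 kb from any start in the table, compared with 18.8% of the others. Starts on both strands lay inside 1119 of the 8214 members with a start (13.6%) and inside 57 of the 1303 other peaks with one (4.37%).

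The median centre of the members near a start lay within 8 bp of that start in all 6 lists. For the 9203 members within 1000 bp of a start, the median position of the centre was 8 bp downstream of it in E13.5 het, 6 bp in E13.5 KO, 2 bp in E16.5 het, 6 bp in E16.5 KO, and 0 bp in both P0 and P3. The middle 50% of centres ran from 84 bp upstream to 78 bp downstream in E13.5 het and from 95 bp upstream to 80 bp downstream in P0. The regions were selected for overlap between these lists, so the likeness of the 6 medians is a description.

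**Figure D2:**
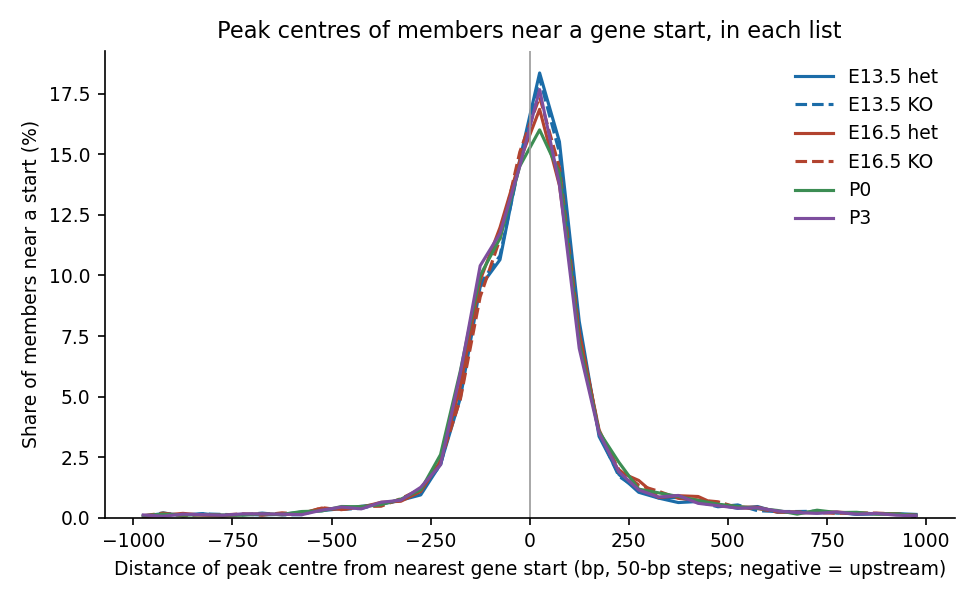
Lines give, for each of the 6 lists, the share of the 9203 members near a gene start (vertical axis, percent) by the distance of the peak centre from the start in 50-bp steps (horizontal axis, negative upstream). The 6 lines lie nearly on top of each other and peak at the start.

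Members moved little between lists. The peaks are all of 1 width, so the range of the 6 peak centres of a region, here its spread, measures how far the call moved between stages and genotypes. The median spread was 97 bp (middle 50% 58 to 162, lowest 6, highest 854), and 51.6% of members kept all 6 centres within 100 bp, whereas 1.01% spread over more than 500 bp. The median was 89 bp at gene ends, 107 bp within genes and 116 bp between genes. It was 84 bp for members that held a start and 111 bp for those that did not. From the E13.5 het centre, the median offset was 22 bp to E13.5 KO, 34 bp to E16.5 het, 31 bp to E16.5 KO, 36 bp to P0 and 30 bp to P3. For E13.5 het peaks that overlapped the same list without being members, these offsets were 34, 51, 49, 59 and 48 bp. The rule itself asks for overlap with every list, so a narrow spread is partly what selected these regions and is given as a description.

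The narrowest member lay at the start of *Zfp281* (chromosome 1, 136624548 to 136625048). Its centre lay at 136624798 in E13.5 het, 136624797 in E13.5 KO, 136624800 in E16.5 het, 136624798 in E16.5 KO, 136624795 in P0 and 136624801 in P3. All 6 calls thus fell within 6 bp. The next 4 members spread over 8 bp each and lay beside starts of *Camsap1*, which caps microtubule minus ends, *Mfn1*, *Cpt2*, which carries fatty acids into mitochondria, and *Ethe1*, a mitochondrial sulfur dioxygenase. The widest lay at *Fbn1*, which encodes the matrix protein fibrillin (chromosome 2, 125505989 to 125506489). Its centre lay at 125506239 in E13.5 het and 125505741 in E13.5 KO, and at 125506506, 125506559, 125506595 and 125506080 in E16.5 het, E16.5 KO, P0 and P3, a spread of 854 bp. The E13.5 KO and P3 centres were the low ones, and the calls at either end did not overlap each other. Next came a region between *Gm13323* and *H2al2a* (774 bp), and regions in *Tspan12* (769 bp), *Col9a1* (744 bp) and *Has2* with its antisense gene *Has2os* (742 bp).

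A smaller group of members lay far from gene ends. The farthest lay on chromosome 1 at 141884177 to 141884677, 570613 bp from any gene end, between *Gm25457* and *Gm18183*. It was nevertheless found in all 6 lists with centres within 56 bp. The others of the 5 farthest lay within *Lsamp* and *Nrxn3*, 2 genes for neuronal adhesion proteins, within *Ccser1*, and between *Gm19050* and *Gm24774* on chromosome 14. The *Nrxn3* region is far from the outer ends of its gene, yet its centre lay 97 bp upstream of an internal start. By gene, the most members (12 each, of 32, 30 and 29 E13.5 het peaks) lay in *Gm37013*, *Gm38666* and *Gm38667*, overlapping loci on chromosome 18 that share these members. The bounds of *Gm37013* hold 54 of the 57 clustered protocadherin genes in the table, which encode cell surface adhesion proteins. *Dlg2*, a synaptic scaffold gene, held 9 of 19 peaks and *Gpc5*, a glypican gene, 7 of 16. Over the whole E13.5 het list 42.5% of peaks were members. These genes are long (868.1 to 1973.1 kb), and they are ranked by count, not by share.

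Members were more frequent where genes were dense. In 1-Mb windows with 0 to 1 protein-coding gene, 25.3% of E13.5 het peaks were members (interval 23.9 to 26.6). The share was 31.8% with 2 to 4 genes, 39.5% with 5 to 9, 46.3% with 10 to 19 and 58.6% with 20 or more (interval 57.5 to 59.7). The window with most members, chromosome 7 from 45 to 46 Mb, held 49 of 65 peaks and 66 protein-coding genes. The next were chromosome 7 from 19 to 20 Mb (41 members of 66 peaks), chromosome 8 from 70 to 71 Mb (40 of 55), chromosome 19 from 4 to 5 Mb (38 of 51) and chromosome 7 from 30 to 31 Mb (35 of 62). Over chromosomes with more than 8 peaks, the share ran from 35.5% on chromosome 18 to 49.6% on chromosome 7, with 48.7% on the X chromosome. The median distance from a member to the next was 31386 bp at gene ends and 39705 bp between genes.

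Seen from the promoters, openness in the lists was mostly all or none. A promoter here is the 300 bases from 250 before to 50 after a start, and 32817 distinct ones were used. Of the 21238 protein-coding promoters, 41.3% met no peak in any list and 43.2% met a peak in all 6, while 1, 2, 3, 4 or 5 lists accounted for 3.18%, 2.74%, 2.67%, 2.86% and 4.04%. A member overlapped 10894 promoters (33.2%), another E13.5 het peak 1712 and a peak of another list alone 2638, and 17573 met none. By gene type, a member lay at 45.3% of protein-coding promoters (interval 44.7 to 46.0) and 10.9% of lncRNA promoters (interval 10.4 to 11.5). Small RNA genes were counted over their own length: a member overlapped 56 of 408 tRNA genes (13.7%, interval 10.7 to 17.4), 44 of 1228 miRNA genes (3.58%), 8 of 1004 snRNA genes and 5 of 1340 snoRNA genes. Other E13.5 het peaks overlapped 39 tRNA, 15 miRNA, 9 snRNA and 18 snoRNA genes.

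Member promoters were rich in CpG. The classes also differ in gene type: 1263 of the 10894 member promoters and 8796 of the 17573 with no peak are of lncRNA genes. What part of the differences in base composition and motifs goes with gene type was not tested. The median GC content of the 300 bases was 63.0% at member promoters (middle 50% 57.3 to 69.0), 57.0% at promoters with another E13.5 het peak, 54.3% at those with a peak in another list alone and 47.3% at those with none. The median number of CpG dinucleotides was 23, 13, 8 and 3 in the same order. The CpG count relative to base composition was 0.80 at member promoters and 0.20 at promoters with no peak.

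Motifs of widely expressed factors were more frequent at member promoters. The ETS site was found in 19.4% of member promoters (interval 18.7 to 20.2), 7.89% of promoters with another E13.5 het peak, 7.70% of those with a peak in another list alone and 2.57% of those with no peak. Over all promoters the share was 8.86%. The GC box was found in 54.1% of member promoters and 7.41% of those with no peak (25.6% of all promoters). The NRF1 site was found in 4.21% against 0.285% (1.75% of all), the YY1 site (AAGATGGCG) in 3.14% against 0.319%, and the BANP site in 1.86% against 0.0683%. The CRE site (TGACGTCA), bound by CREB and ATF proteins, stood at 3.73% against 0.711%, and the E-box at 10.9% against 4.50%. The CTCF core (AGGGGGCGC), part of the site of the chromatin insulator protein, stood at 2.65% against 0.307%. Of 6 motifs (ETS, NRF1, YY1, BANP, SP/KLF and NF-Y), none was present in 18.6% of member promoters and in 56.6% of promoters with no peak, and 2 or more in 35.3% against 3.99%.

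Other motifs were less frequent at members. The TATA box was found in 5.26% of member promoters (interval 4.86 to 5.69) and 19.8% of those with no peak. The AP-1 site (TGANTCA) was found in 3.60% against 10.6%, the GATA site (AGATAAG) in 1.35% against 4.21%, the SOX site (AACAAAG) in 3.18% against 7.62% and the forkhead site (TGTTTAC) in 2.12% against 4.68%. For DMRT1, a factor of male germ cells and Sertoli cells, the shares were 1.17% and 4.31%. The OCT4 octamer (ATGCAAAT), read by a factor of pluripotent and early germ cells, was found in 1.40% and 1.88%, and in 2.69% of promoters with another E13.5 het peak (interval 2.02 to 3.57). NR5A (TCAAGGTCA) stood at 0.165% against 0.643%. The last motif, ZNF143 (ACTACAA), was more frequent at members, with 4.08% against 2.95%. Motifs can overlap, since the NRF1 and BANP sites are nearly palindromic, and a promoter counts once per motif.

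**Figure D3:**
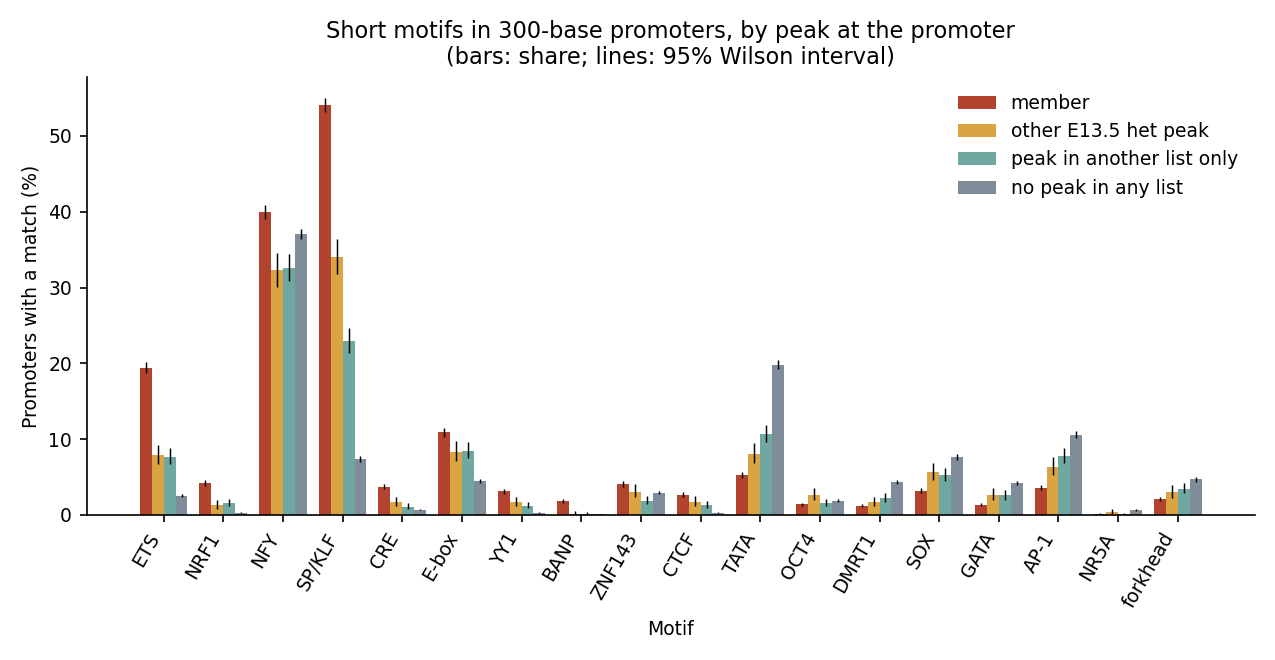
Bars give the share of 300-base promoters with at least 1 match on either strand (vertical axis, percent) for each of 18 motifs (horizontal axis), by the peak at the promoter, with 95% Wilson intervals as lines. For ETS and SP/KLF the member bar is the highest of the 4 (19.4% and 54.1%), and for TATA the bar of promoters with no peak (19.8%).

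Because base composition differed as well, the shares were compared within 6 bands of GC content. The bands do not match the number of CpG dinucleotides, whose median over all bands was 23 at member promoters and 3 with no peak. The letters of ETS, NRF1, the GC box, CRE, the E-box, YY1, BANP and CTCF each contain a CG. Whether their differences within a band go with CpG number was not tested. The GC box was more frequent at member promoters, with an interval of the difference above 0, in all 6 bands, and the ETS, NRF1, NF-Y, YY1 and BANP motifs in 5 of 6. Among promoters of 45 to 55% GC, an ETS site was found in 341 of 1751 member promoters and 201 of 7903 with no peak (2.54%), a difference of 16.9 percentage points (Newcombe interval 15.1 to 18.9). In the band of 70% or more that difference was 3.56 points, with an interval that reached below 0 (-0.652 to 6.89). The CCAAT box differed by only 2.87 points over all promoters (39.9% against 37.0%), but by 14.9 points (interval 12.3 to 17.5) at 45 to 55% GC and by 16.2 points (interval 12.1 to 20.03) at 60 to 65%. The octamer, less frequent at members over all promoters, was more frequent at them in 4 bands and less frequent in 0. The TATA box was less frequent at members in 2 of 6 bands, AP-1 in 3, GATA in 2 and DMRT1 in 1, and in the other bands their intervals reached 0. SOX and forkhead differed in no band. The CRE site and the E-box were more frequent at members in 4 bands, and CTCF and ZNF143 in 3. At 70% GC or more the CTCF core was found in 4.14% of member promoters and 5.65% of those with no peak, a difference of -1.50 points (interval -4.80 to 0.764).

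**Figure D4:**
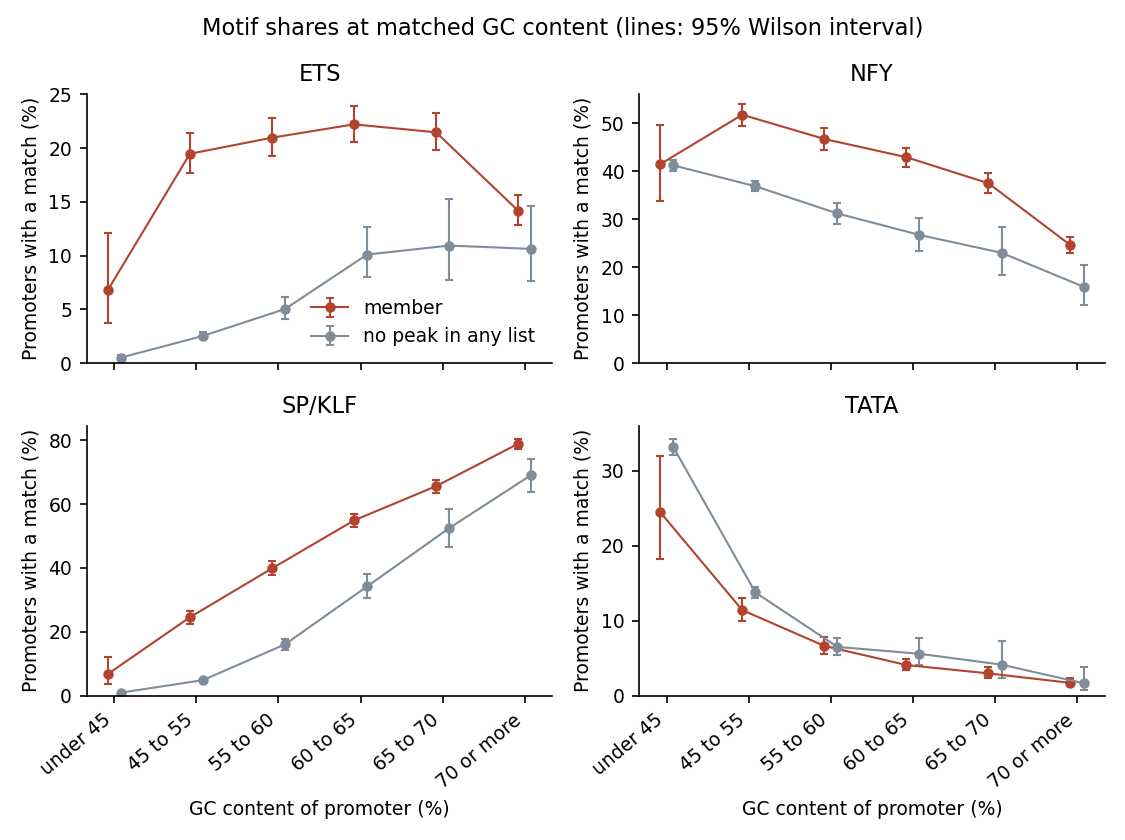
Each panel gives, for 1 motif, the share of promoters with a match (vertical axis, percent) in 6 bands of promoter GC content (horizontal axis), at member promoters and at promoters with no peak in any list, with 95% Wilson intervals. ETS, NFY (the CCAAT box) and SP/KLF lie higher at members in nearly every band, and TATA differs only in the 2 bands under 55% GC.

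Matches were unevenly placed along the promoter, both with and without a member. In the 50 bases before the start lay 35.5% of ETS matches at member promoters and 32.7% at promoters with no peak. For NRF1 these shares were 35.0% of 768 matches and 42.9% of 77, where a palindrome counts once on each strand. For the GC box they were 31.8% and 29.0%. The CRE site lay there in 43.9% of its 419 matches at members and in 28.0% of its 125 matches at promoters with no peak. The YY1 site lay in the first 50 bases after the start in 58.2% of 354 matches at members and 40.7% of 59 at promoters with no peak. The CCAAT box was most frequent from 100 to 51 bases before the start, with 29.3% and 21.7% of its matches. TATA matches at members were most frequent from 250 to 201 bases before the start (28.3% of 623) and again in the last 50 bases before it (21.8%), where promoters with no peak had 23.7%. These shares were not tested against each other.

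Named groups of genes were then counted by whether a member overlapped one of their promoters, among genes that have a start in the table. Over all 17492 such protein-coding genes the share was 49.4%, and every count below is to be read against it. By outer gene ends within 1000 bp, 11036 of 21887 protein-coding genes (50.4%) had a member. Genes for basic cell functions were mostly above the background. A member lay at 56 of 64 cytosolic ribosomal protein genes (87.5%, interval 77.2 to 93.5), 64 of 69 mitochondrial ribosomal protein genes, 27 of 32 proteasome subunits, 28 of 33 subunits of respiratory complex I, 9 of 10 RNA polymerase II subunits and 11 of 12 aminoacyl-tRNA synthetases. The closest members sat on the start: the centre lay 1 bp upstream of the *Rps6* start and 1 bp downstream of the start of *Mrps26*. Of the genes without a member, no list had a promoter peak at 3 cytosolic and 2 mitochondrial ribosomal protein genes, 4 proteasome genes and 3 complex I genes, among them *Rpl32l*, *Mrpl43*, *Psma7*, *Psmb10* and *Ndufa6*. *Ndufb10* had a peak in E13.5 KO alone and *Psmb11* in both E16.5 lists. Others missed 1 list. *Rpl10a* lacked a peak in P3 alone, *Rpl38* in P0 alone, *Ndufb8* and *Farsa* in E16.5 het alone, and *Mrpl22* and *Mrpl53* in E16.5 KO alone. *Polr2h*, a subunit shared by all 3 nuclear RNA polymerases, had a peak from E16.5 on and none in the E13.5 lists.

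Regulators of chromatin and transcription were also mostly members. A member lay at all 11 genes with a start for cohesin, CTCF and condensin, *Ctcf* and *Smc1a* among them. By outer gene ends the count in this group was 11 of 15 (73.3%). *Nipbl* and *Rad21*, which have no start in the table, had no member at an outer end. A member also lay at 15 of 16 widely expressed transcription factors, which include *Nrf1*, *Gabpa* (an ETS factor), *Nfya*, *Sp1* and *Yy1*. The exception, *Elf1*, had no peak in any list at a promoter counted, but a member within 1000 bp of an outer gene end. In the Zfp zinc finger family, whose KRAB members recruit silencers to transposons, 239 of 329 genes had a member (72.6%, interval 67.6 to 77.2). Of genes for H3K9 methylation and heterochromatin 13 of 16 had one, including *Setdb1*, *Trim28* (the KRAB co-repressor, with centres within 16 bp) and the HUSH complex genes *Tasor*, *Mphosph8* and *Pphln1*. The exceptions were *Ehmt2* (E16.5 het alone), *Cbx3* (both E13.5 lists) and *Suv39h2* (no promoter peak in any list, but a member within 1000 bp of an outer gene end). By outer gene ends the count for this H3K9 and heterochromatin group was 11 of 16 (68.8%). In the MORC family a member lay at *Morc2a*, *Morc3* and *Morc4*, while *Morc2b* had a peak in both E16.5 lists and P0. *Morc1* itself had a member within 1000 bp of an outer gene end and is not in the promoter counts. That member says nothing on whether the gene was disrupted.

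Of 9 DNA methylation and demethylation genes, 6 had a member (66.7%, interval 35.4 to 87.9): the de novo methyltransferases *Dnmt3a* and *Dnmt3b*, the maintenance genes *Dnmt1* and *Uhrf1*, the glycosylase *Tdg* and the dioxygenase *Tet3*. *Dnmt3l*, the cofactor of de novo methylation in germ cells, had a peak in E16.5 het, E16.5 KO and P0 only. *Tet1* lacked a peak in P3 alone and *Tet2* in E13.5 het alone, though a member lay within 1000 bp of an outer end of *Tet2*. The interval of this group includes the background.

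Genes of the germ cell programs were split. In the piRNA pathway, which makes small RNAs that guide transposon silencing, 12 of 17 genes had a member (70.6%, interval 46.9 to 86.7, which includes the background). They were *Ddx4*, *Mael*, *Mov10l1*, *Tdrkh*, *Asz1*, *Exd1*, *Henmt1*, *Pld6*, *Piwil4*, *Tdrd5*, *Tdrd7* and *Tdrd12*. *Piwil4* encodes the nuclear piRNA-binding protein MIWI2. At *Tdrd9* a peak was in both E16.5 lists and P0, at *Gtsf1* and *Piwil1* in both E16.5 lists, P0 and P3, at *Fkbp6* in 4 lists (not E13.5 KO or P3), and at *Tdrd1* in none. Of the meiotic genes, which act after birth in the male, 18 of 23 had a member (78.3%, interval 58.1 to 90.3). Among them were the synaptonemal complex genes *Sycp1*, *Sycp2* and *Sycp3*, the cohesins *Rec8*, *Stag3* and *Smc1b*, the recombinase *Dmc1* and the hotspot gene *Prdm9*. The 5 others were *Stra8* (P3 alone), *Sohlh1* (both E16.5 lists, P0 and P3), and *Mei1*, *Msh4* and *Rad21l* (no promoter peak in any list, but a member within 1000 bp of an outer gene end).

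Genes that mark 1 state of the germ line were members in part. Of 8 germ cell markers, 3 had one: *Ddx4*, *Mael* and *Kit*. *Pou5f1* (OCT4) had a promoter peak in both E16.5 lists and P0, *Nanos3* in E13.5 KO alone, and *Dazl*, *Nanos2* and *Tdrd1* in none, though a member lay within 1000 bp of an outer end of *Dazl*. Of 9 spermatogonial stem cell genes, members lay at *Id4*, *Etv5* and *Foxo1*. *Gfra1*, the GDNF co-receptor, had a peak in E13.5 het alone, *Lhx1* in E16.5 het alone and *T* in both E16.5 lists. The other 3 had none, *Eomes* and *Pax7* among them, though a member lay within 1000 bp of an outer end of *Eomes*. Of 10 pluripotency genes, 6 had a member (*Sox2*, *Klf2*, *Klf4*, *Esrrb*, *Tfcp2l1* and *Zfp42*). *Lin28a* had peaks in both E13.5 lists alone, *Nanog* in those and E16.5 KO, and *Utf1* in all lists but P3. The intervals of these 3 groups include the background. Of genes for cell cycle arrest, 10 of 11 had a member (90.9%, interval 62.3 to 98.4), including the CDK inhibitors *Cdkn1a*, *Cdkn1b*, *Cdkn2a*, *Cdkn2b*, *Cdkn2c* and *Cdkn2d* and the RB relatives *Rbl1* and *Rbl2*, and *E2f1* had a promoter peak in E13.5 KO alone and a member within 1000 bp of an outer gene end. By outer gene ends the count for cell cycle arrest was 11 of 15 (73.3%), against 50.4% of all protein-coding genes.

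Large families of tissue-restricted genes lay below the background. A member was found at 2 of 944 olfactory receptor genes (0.212%, interval 0.0581 to 0.769), *Olfr95* and *Olfr1349*, and at 0 of 321 vomeronasal receptors (Wilson upper bound 1.183%) and 0 of 36 keratins (upper bound 9.64%). No list had a peak at the promoters counted for 919, 320 and 21 of these. Some receptor entries are short, for example *Vmn1r1*, from 182157178 to 182158098. Whether the starts in the table for these receptors are those of transcription was not tested. A promoter farther upstream would be missed by these counts. Of the Hox genes, which pattern the body axis, 3 of 22 had a member (*Hoxa13*, *Hoxd1* and *Hoxd13*), 9 had a peak in some list and 10 in none. The replication-dependent histones, which package newly made DNA, had a member at 20 of 59 promoters (33.9%, interval 23.1 to 46.6). By outer gene ends the count was 29 of 64 (45.3%), close to the background of 50.4% by that measure. Those with a member included *H2ac1*, *H4c4*, *H2ac7* and *H2ac8*, whereas *H1f3* had a peak in both E16.5 lists alone and *H1f4* in none. Histone genes are near-identical copies, so reads may map to several of them, and how the authors treated such reads is not given in the sources used here.

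**Figure D5:**
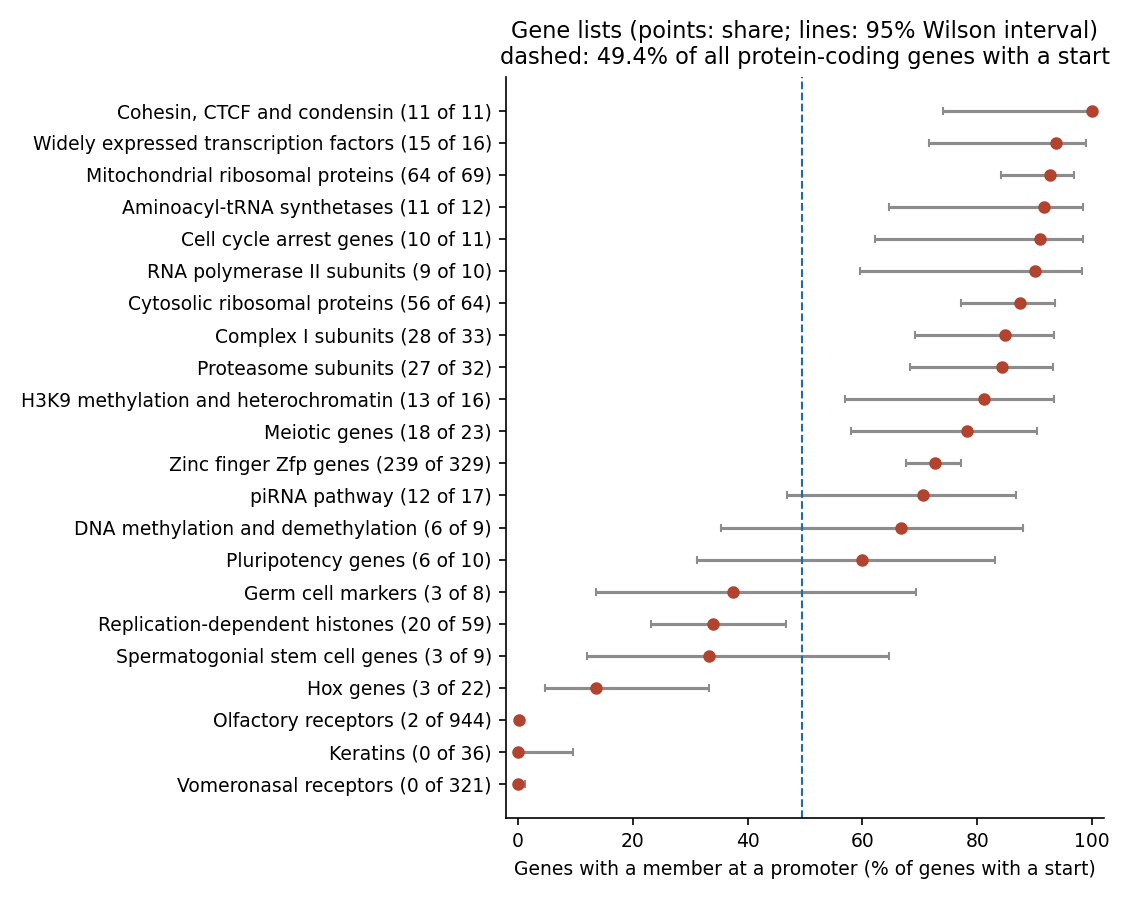
Points give, for each gene list with 8 or more genes that have a start, the share of those genes with a member at a promoter (horizontal axis, percent), with 95% Wilson intervals. The dashed line is the 49.4% of all protein-coding genes. Lists of basic cell functions lie to its right and receptor families, keratins and Hox genes to its left.

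Few markers of other testis cells had a start in the table, and the interval of each of these groups includes the background. A member lay at *Cldn11* of 2 Sertoli markers, *Cyp11a1* of 3 Leydig markers and *Kdr*, the single endothelial marker counted. The other marker promoters, *Dhh*, *Hsd3b1*, *Insl3*, *Cnn1*, *Ptprc* and *Hbb-bt*, had no peak in any list, though a member lay within 1000 bp of an outer end of *Dhh*, and *Acta2*, of peritubular myoid cells, had one in P0 and P3. Whether a few cells of these types were among the germ cells was not tested, and an open promoter is not a measure of expression.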

How the data were processed

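The authors deposited 1 peak list per stage and genotype (3 columns, coordinates only). All but 2 of the E13.5 het peaks are 501 bp wide. How the 2 samples were combined is not given in the sources used here. Per the submitters' processing notes, the build is mm10 and the tools include bcl2fastq 2.20, cutadapt 1.18, Bowtie2 2.3.4.1, deepTools 3.5.0 and HOMER 4.10. Coordinates were read as GRCm38 and are written 1-based.

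Members were found by overlap of at least 1 bp in Python 3.11.15 (numpy 2.4.6, pandas 2.3.3, statsmodels 0.14.6). bedtools 2.31.1 gave the same 17202, and the overlap step was tested on simulated data. Gene ends came from a RefSeq table of 49943 genes, starts from 32851 RefSeq promoters of GRCm38.p6. Shares have 95% Wilson intervals and differences Newcombe intervals.

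The members, the gene lists and the motifs were chosen with earlier results of these data known. Short lists could be named in full, though some are named here only in part. From lists of more than 25 genes, the 4 with the member centre closest and the first 3 by symbol without one could be named, and of regions the 5 at each extreme. *Olfr95* and *Olfr1349* are the whole of a count. The stretches printed were chosen after their values were seen. Alternatives were other overlap rules, other lists' coordinates, 4 lists, autosomes, a 500 bp window and protein-coding genes only. The motif shares over protein-coding promoters only were added after seeing the data. *Dnmt3c*, from the lists, was not matched to the gene table.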

Additional observations from a re-analysis of the deposited data

How the results depend on the processing

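No result has a test, so a value was compared with the 95% interval of the reported share. No paired analysis was possible because no list is of 1 sample, and leaving out replicates was not run for the same reason. The share of E13.5 het peaks that are members was 39.7% with a reciprocal overlap of 50%, 44.3% with peaks within 500 bp counted as shared and 46.5% when the 2 KO lists of E13.5 and E16.5 were left out, as a stricter or looser rule must give. The reciprocal rule lowered the gene-end difference to 46.6 percentage points and the share of protein-coding genes with a member at an end to 47.5%. A gene-end window of 500 bp gave 60.2% of members at a gene end, 16.6% between genes and 47.6% of protein-coding genes with a member. With protein-coding genes only, 57.6% of members lay at a gene end and 23.0% between genes. The SD of the 6 centres, in place of their range, had a median of 36.9 bp, a different quantity by construction. Counted by the coordinates of the other lists, the number of regions stayed between 17150 and 17195. Autosomal promoters alone left all 36 motif shares inside their intervals, and protein-coding promoters alone, added after seeing the data, moved 18 of 36. Of these, 17 are shares over all promoters, for example ETS from 8.86% to 11.6%, SP/KLF from 25.6% to 33.9%, NRF1 from 1.75% to 2.35% and BANP from 0.676% to 0.965%, nearer to the member shares, and 1 is the SP/KLF share of member promoters (55.04%). Shares at promoters with no peak are not given for protein-coding promoters alone. Peak height and read depth, which could bear on which peaks are shared, are not in the lists.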
